A study of Homo sapiens with 12 samples.

Results

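The genes described here build and regulate cholesterol and fatty acids. They are 34 human genes chosen by symbol, and all 34 were found among the 26058 genes listed in the deposited table. Each passed the filter on low values, so that 34 of the 22067 genes tested were members. The rule names symbols and uses no expression value. By role, the members are 5 regulators of the SREBP transcription factors, 6 genes of the mevalonate and isoprenoid steps, 11 genes of the squalene and sterol steps, the sterol carrier STARD4, 9 genes of fatty acid synthesis and desaturation, and 2 genes of malonyl-CoA turnover and the carnitine shuttle.

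RNA was sequenced from HEK293, an established human embryonic kidney cell line (WT), and from a derivative in which both genes of the catalytic AMPK subunits, PRKAA1 and PRKAA2, were targeted with CRISPR (AMPK KO). AMPK is the energy-sensing kinase of the cell. All cells were serum starved for 24 h before treatment. The 3 treatments in each line were the solvent DMSO alone, DMSO for 20 min followed by epidermal growth factor (DMSO+EGF) for 30 min, and 25 µM cordycepin for 20 min followed by EGF for 30 min (cordycepin+EGF), 50 min in all. Cordycepin is an adenosine analogue that lacks a hydroxyl group on its ribose. The EGF concentration was given in different units in different places. The time in DMSO alone, 50 or 20 min, and the serum content during starvation also differed between sources. None of these was resolved. There were 12 libraries in 6 groups, with a replicate 2 and a replicate 3 in each, which the study calls biological replicates without saying how the cultures were kept apart. The p-values measure the spread between these samples. The knockout is a single derivative line, so that loss of AMPK and any other difference between the lines cannot be told apart. In bulk RNA, fewer expressing cells and less RNA per cell cannot be told apart either.

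SREBPs are made as membrane proteins of the endoplasmic reticulum. The escort SCAP carries them to the Golgi, where they are cut and freed to enter the nucleus, and INSIG proteins hold SCAP back when sterols are plentiful. SREBP-2, from SREBF2, acts mainly on sterol synthesis genes, and the SREBP-1 forms, from SREBF1, mainly on fatty acid synthesis genes. AMPK is known to phosphorylate the acetyl-CoA carboxylases, from ACACA and ACACB, and to restrain SREBP activity.

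Promoter sequence was looked at because SREBPs bind sterol response elements, often beside CCAAT boxes bound by the factor NF-Y. RefSeq windows (GRCh38.p14) from 250 bases before to 50 after a gene's start were matched to 31 of the 34 members. Each had 1 window, the one nearest the annotated start of the gene, so that other starts were not searched. Other forms of the sterol response element were not searched either. On both strands the windows were searched for TCACNCCAC, a sterol response element, and for the CCAAT box. They were also searched for the E-box, written CACGTG, which SREBPs can bind, and for the Sp1 motif known as the GC box, written GGGCGG. The CCAAT box was present in 19 member windows (61.3%), against 34.614% of all 35116 windows, and the GC box in 26 (83.9%), against 44.954%. The 35116 windows were not limited to 1 per gene or to the tested genes, so that such shares are not of like sets. The E-box was present in 4 (12.9%: SCAP, INSIG1, LSS and SC5D), against 7.256% of all windows. By role, CCAAT lay in 5 of 6 mevalonate windows, 7 of 9 sterol windows, 3 of 8 fatty acid windows and 2 of 5 regulator windows. TCACNCCAC was found in 1 member window (3.2%), against 1.128% of all windows, and that was the promoter of SREBF2. A match is a description of the letters and not evidence of binding.

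The 250 bases before the start are printed for 7 members: both SREBP genes, and 5 genes described below for their values under cordycepin, which differ in whether they hold CCAAT. TCACNCCAC and CCAAT are in capitals where they occur, and CCAAT on the other strand reads ATTGG. The RefSeq starts of FADS1 and ACSS2 lie inside the longer gene spans of the annotation used for the expression values.
SREBF2: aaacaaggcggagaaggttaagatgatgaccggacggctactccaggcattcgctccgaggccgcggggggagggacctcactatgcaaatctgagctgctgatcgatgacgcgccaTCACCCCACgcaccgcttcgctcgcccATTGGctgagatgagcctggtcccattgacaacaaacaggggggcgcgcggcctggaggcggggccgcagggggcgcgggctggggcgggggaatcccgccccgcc
SREBF1: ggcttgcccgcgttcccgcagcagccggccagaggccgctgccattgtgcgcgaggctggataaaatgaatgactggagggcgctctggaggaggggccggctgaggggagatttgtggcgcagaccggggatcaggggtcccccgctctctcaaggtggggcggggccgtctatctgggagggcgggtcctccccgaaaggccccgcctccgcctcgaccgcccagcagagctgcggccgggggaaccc
STARD4: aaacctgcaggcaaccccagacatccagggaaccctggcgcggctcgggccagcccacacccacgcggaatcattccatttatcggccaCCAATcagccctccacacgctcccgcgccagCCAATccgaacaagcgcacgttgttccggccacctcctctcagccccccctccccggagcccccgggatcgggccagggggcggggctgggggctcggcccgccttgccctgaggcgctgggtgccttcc
HMGCS1: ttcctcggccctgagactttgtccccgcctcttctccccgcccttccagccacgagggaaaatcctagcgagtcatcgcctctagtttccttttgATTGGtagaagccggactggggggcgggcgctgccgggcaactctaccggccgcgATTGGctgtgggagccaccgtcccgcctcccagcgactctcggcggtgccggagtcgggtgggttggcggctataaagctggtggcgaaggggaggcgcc
IDI1: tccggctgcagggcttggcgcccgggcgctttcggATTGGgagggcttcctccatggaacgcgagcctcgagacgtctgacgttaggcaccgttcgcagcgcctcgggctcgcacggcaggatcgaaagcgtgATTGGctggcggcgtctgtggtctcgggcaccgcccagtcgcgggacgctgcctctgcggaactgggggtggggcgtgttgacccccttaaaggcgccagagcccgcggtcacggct
FADS1: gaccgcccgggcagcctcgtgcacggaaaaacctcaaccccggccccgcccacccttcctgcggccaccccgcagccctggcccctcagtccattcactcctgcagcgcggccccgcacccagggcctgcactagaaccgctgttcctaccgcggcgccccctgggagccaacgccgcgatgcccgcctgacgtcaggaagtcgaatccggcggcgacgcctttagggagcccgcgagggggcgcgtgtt
ACSS2: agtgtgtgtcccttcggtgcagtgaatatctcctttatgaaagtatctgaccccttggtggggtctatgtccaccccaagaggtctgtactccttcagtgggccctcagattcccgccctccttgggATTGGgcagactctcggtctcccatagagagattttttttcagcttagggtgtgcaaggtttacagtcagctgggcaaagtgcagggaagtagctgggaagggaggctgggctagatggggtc

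The SREBF2 stretch (chr22:41832855-41833104, plus strand) held the sterol response element and a single CCAAT box, which lay close together. STARD4 (chr5:111512536-111512785, minus strand), HMGCS1 (chr5:43313413-43313662, minus strand) and IDI1 (chr10:1049120-1049369, minus strand) held 2 CCAAT boxes each. ACSS2 (chr20:34874739-34874988, plus strand) held 1. SREBF1 (chr17:17836987-17837236, minus strand) and FADS1 (chr11:61817004-61817253, minus strand) held neither motif.

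The libraries differed in depth. Recovered from the RPKM steps, WT DMSO replicate 3 had 3990221 reads, against 12612377 to 26317674 in the other libraries, and the replicates of WT DMSO were the least alike (r = 0.918 across genes, against 0.961 to 0.977). Comparisons with WT DMSO were therefore the least precise. The log2 difference between its replicates had an SD of 0.695 over genes, against 0.371 to 0.462 in the other groups. The fit used 1 spread per gene for all 6 groups, so that the printed standard errors and p-values do not show this. They tend to be too small for comparisons with WT DMSO and too large for the others. Of the targeted genes, PRKAA1 was lower in AMPK KO over the 3 treatments, by a log2 ratio of -0.96 (SE 0.0967, adjusted p 0.00201, limma), with no overlap between the 6 libraries of each line. PRKAA2 was at -0.48 (SE 0.116, adjusted p 0.0547). In cordycepin+EGF the difference between the lines was smaller, at -0.49 (SE 0.167, adjusted p 0.28) for PRKAA1 and -0.12 (SE 0.202, adjusted p 0.804) for PRKAA2, which stood at 0.09 without AMPK KO cordycepin+EGF replicate 2. PRKAA1 held 11.6 and 11.2 scaled RPKM in WT cordycepin+EGF, against 17.2 and 18.5 in WT DMSO+EGF. Among the cell type markers, VIM, KRT8, KRT18, NEFL, LIN28B and CDH2 were expressed in both lines, while NEFM and PAX2 stayed under the filter. The blood, macrophage and fibroblast markers PTPRC, CD68 and COL3A1 reached at most 0.0607, 0.684 and 0.303 RPKM.

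The members covered a wide range of levels. RPKM is a level per length, so that genes can be ranked. SCD, the desaturase that makes monounsaturated fatty acids, had the highest mean over the 12 libraries, at 206 RPKM, followed by FASN, the fatty acid synthase, at 167 and ACLY, which makes cytosolic acetyl-CoA from citrate, at 137. Among the tested genes these 3 stood at the percentiles 99.5, 99.4 and 99.2. INSIG1 had 87.7 RPKM and FDFT1, the squalene synthase, 57.2. The lowest were CYP51A1, the lanosterol demethylase, at 1.19, MLYCD, the malonyl-CoA decarboxylase, at 1.31, and CPT1A, the gate of the carnitine shuttle, at 1.67. INSIG1 exceeded its relative INSIG2 (2.52 RPKM) in every library, and ACACA (22.3 RPKM) exceeded ACACB (2.28 RPKM) in every library. CYP51A1 is uncertain, since 68.2% of its exon bases are shared with other genes on the same strand and it fell to 12 reads in 1 library. EBP shares 36.4% of its exon bases in this way. Pseudogene copies of CYP51A1, FDPS, HSD17B7 and SCD were listed at up to 5.1, 1.02, 4.04 and 19.1 RPKM. Reads could be split between them and the parent genes. The highest copy of CYP51A1 stood above CYP51A1 itself.

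**Figure D1:**
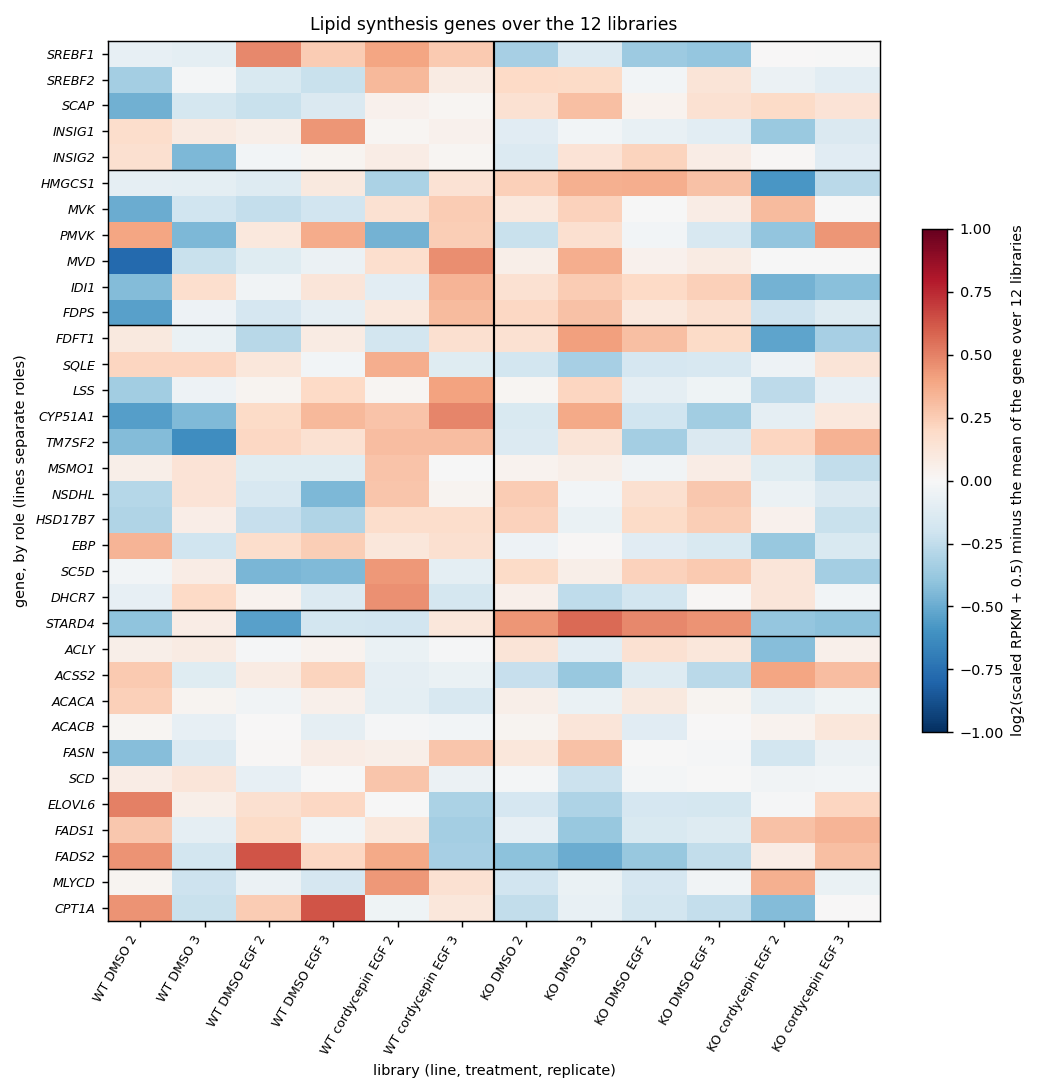
Each cell is the log2(scaled RPKM + 0.5) of a gene (rows, grouped by role) in a library (columns; WT left and KO, meaning AMPK KO, right of the line) minus the gene's mean over the 12 libraries, on a scale from -1 to 1. STARD4 is red in the KO DMSO and KO DMSO+EGF libraries and blue in the KO cordycepin+EGF libraries.

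The question of the series was whether the response to EGF and to cordycepin depends on AMPK, and the lines were compared first. Values are given as scaled RPKM, which is RPKM set to a common upper quartile, and fold changes are on the log2(scaled RPKM + 0.5) scale, which understates changes of low genes. A gene was called at an adjusted p under 0.05 (limma, Benjamini-Hochberg over all 22067 genes). Averaged over the 3 treatments, 2 of the 34 members (5.88%) were called between AMPK KO and WT, against a background of 4.34% of all genes. SREBF1 was lower (1 member, 2.94%, background 1.54%) and SCAP was higher (1 member, 2.94%, background 2.8%) in AMPK KO. The median over the members was -0.02, against 0.00106 over all genes tested, with 15 members above and 19 below 0.

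SREBF1 (chromosome 17, 17810399 to 17837002, minus strand) encodes the SREBP-1 proteins. In WT cells it stood at 6.50 and 6.41 scaled RPKM in DMSO, 9.83 and 8.30 in DMSO+EGF and 9.22 and 8.35 in cordycepin+EGF. The AMPK KO libraries held 5.38 and 6.20, then 5.23 and 5.14, and 6.93 and 6.88 in the same order. Within each treatment both AMPK KO libraries were below both WT libraries. Averaged over treatments, this was -0.41 on the log2 scale (SE 0.073, adjusted p 0.0187). The difference in DMSO+EGF was -0.74 (SE 0.126, adjusted p 0.034), where SREBF1 was the only member called (1 of 34, 2.94%, background 1.74%, or 0.807% for lower genes). In DMSO it was -0.15 (SE 0.126, adjusted p 0.516) and in cordycepin+EGF -0.32 (SE 0.126, adjusted p 0.324). The averaged call was lost, at an adjusted p of 0.0597 to 0.0775, without WT DMSO+EGF replicate 2, WT cordycepin+EGF replicate 2, AMPK KO DMSO replicate 2, or either AMPK KO DMSO+EGF library. For DMSO+EGF alone, the SREBF1 call was held without either WT DMSO library or without AMPK KO cordycepin+EGF replicate 2, and each of the other 9 omissions gave an adjusted p of 0.0502 to 0.255.

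SCAP (chromosome 3, 47413681 to 47477126, minus strand) encodes the escort that both SREBPs need. The WT libraries held 15.8 and 19.7 scaled RPKM in DMSO, 19.0 and 20.1 in DMSO+EGF and 22.9 and 22.5 in cordycepin+EGF. In AMPK KO the values were 24.8 and 27.6, then 22.8 and 24.8, and 25.5 and 24.6. Across treatments the lines overlapped only where the highest WT library, at 22.9, passed the lowest AMPK KO library, at 22.8, and within each treatment they did not overlap. The log2 fold change averaged over treatments was 0.32 (SE 0.0701, adjusted p 0.0378). By treatment it was 0.55 (SE 0.122, adjusted p 0.0717) in DMSO, 0.28 (SE 0.122, adjusted p 0.214) in DMSO+EGF and 0.14 (SE 0.122, adjusted p 0.626) in cordycepin+EGF. The call was kept without either WT DMSO library and lost on leaving out any 1 of the other 10 libraries, with an adjusted p of 0.0613 to 0.138.

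INSIG1 (chromosome 7, 155297776 to 155310235, plus strand) is the sterol-dependent anchor of SCAP and itself a known SREBP target. It was the only member whose 6 AMPK KO libraries did not overlap the 6 WT libraries. This was 1 of 34 members (2.94%), near the background of 2.66% of all genes. In WT cells its level was 98.3 and 92.6 scaled RPKM in DMSO, 90.4 and 118 in DMSO+EGF and 87.9 and 89.2 in cordycepin+EGF. The AMPK KO libraries gave 80.4 and 85.4, 82.6 and 80.5, and 67.1 and 78.6. The averaged log2 fold change of -0.27 (SE 0.0829, adjusted p 0.105) did not pass the threshold. SREBF2 (chromosome 22, 41833105 to 41907306, plus strand), the sterol-directed SREBP gene, ran from 30.9 to 49.2 scaled RPKM in the WT libraries and from 36.3 to 45.1 in those of AMPK KO, with an averaged log2 fold change of 0.11 (SE 0.077, adjusted p 0.47). INSIG2 stood between 1.69 and 3.00 scaled RPKM in all 12 libraries.

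**Figure D2:**
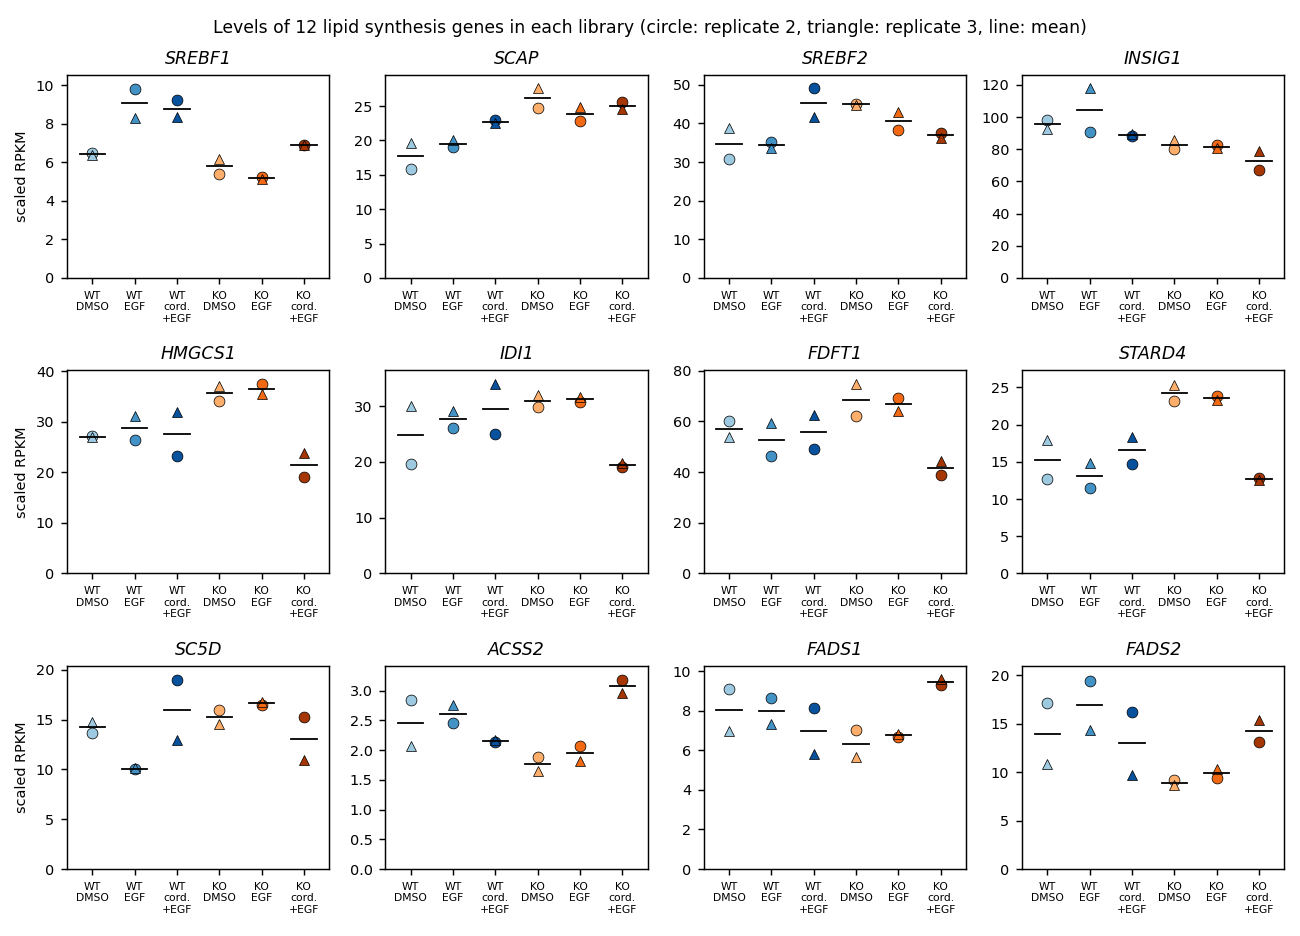
Scaled RPKM (y axes, from 0) of 12 members in the 6 groups (x axes; KO is AMPK KO, EGF is DMSO+EGF, cord.+EGF is cordycepin+EGF), with a circle for replicate 2, a triangle for replicate 3 and a line for the mean of the 2. In AMPK KO, SREBF1 lies between 5.14 and 6.93, and all 6 INSIG1 values lie below the WT values.

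The other members with the largest averaged differences between the lines were CPT1A, at -0.39 on the log2 scale (SE 0.15, adjusted p 0.185), and FADS2, a desaturase of polyunsaturated fatty acids, at -0.38 (SE 0.156, adjusted p 0.208). In WT, CPT1A spanned 1.32 to 2.78 scaled RPKM, and AMPK KO libraries spanned 1.07 to 1.63. At an unadjusted p under 0.05, 9 members (26.5%) differed on average, against 20.4% of all genes: SCAP, MVK and STARD4 higher (8.82%, background 10.9%), and SREBF1, INSIG1, SQLE, EBP, FADS2 and CPT1A lower (17.6%, background 9.44%). By role, the fatty acid group had a median of -0.04 with 7 of 9 members below 0, the sterol steps -0.08 with 6 of 11 below 0, and the mevalonate steps 0.14 with 4 of 6 above 0. The acetyl-CoA carboxylase genes, whose products AMPK phosphorylates, stood at -0.01 (SE 0.0612, adjusted p 0.967) for ACACA, with either sign on leaving out 1 library (-0.04 to 0.03), and 0.06 (SE 0.0847, adjusted p 0.727) for ACACB.

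The difference between the lines was then taken under each treatment. In unstimulated cells (DMSO) no member was called, against 0.44% of all genes, and at an unadjusted p under 0.05 there were 12 members (35.3%), against 21.3% of all genes. Of these, 10 were higher in AMPK KO (29.4%, background 12%): SREBF2, SCAP, HMGCS1, MVK, MVD, FDPS, CYP51A1, TM7SF2, STARD4 and FASN. The 2 lower ones (5.88%, background 9.29%) were SQLE, the squalene epoxidase, and ELOVL6, a fatty acid elongase. The median of the mevalonate steps was 0.45, with 5 of 6 members above 0, against a median of 0.00935 over all genes.

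MVD, the last enzyme of the mevalonate steps, had the largest difference. Its level was 4.56 and 6.93 scaled RPKM in WT DMSO and 8.54 and 10.7 in AMPK KO DMSO, or 0.71 on the log2 scale (SE 0.192, adjusted p 0.108). STARD4, which moves sterols between membranes, was next, at 12.7 and 17.9 against 23.1 and 25.3, or 0.67 on the log2 scale (SE 0.183, adjusted p 0.11). CYP51A1 followed, at 0.623 and 0.713 against 0.978 and 1.63, or 0.61 (SE 0.213, adjusted p 0.163). In each of the 3 genes, chosen by fold change, both AMPK KO libraries were above both WT libraries. Over the whole list that held for 13 members (38.2%), against 25.3% of all genes. In either direction 20 members (58.8%) did not overlap, against 48.5% of all genes. The fold changes depended on which WT DMSO library was used. Without replicate 3, the shallowest library, 9 members were called (SREBF2, SCAP, MVK, MVD, IDI1, FDPS, STARD4 and FASN higher, ELOVL6 lower), with a background that rose to 13.9% of all genes, MVD stood at 0.99 (adjusted p 0.0161) and STARD4 at 0.91 (adjusted p 0.0205). Without WT DMSO replicate 2 no member was called, and the values were 0.44 (adjusted p 0.257) and 0.43 (adjusted p 0.284). With limma-voom on the recovered reads 6 members were called (SCAP, MVK, MVD, FDPS and STARD4 higher, ELOVL6 lower), against 8.35% of all genes.

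Under DMSO+EGF, where only SREBF1 was called, STARD4 had the largest difference. It was at 11.4 and 14.8 scaled RPKM in WT cells and at 23.8 and 23.2 in AMPK KO cells, or 0.83 on the log2 scale (SE 0.183, adjusted p 0.0558). The adjusted p of STARD4 ran from 0.00438 to 0.305 over the 24 alternatives, and 7 of them called it. FADS2 was at 19.5 and 14.3 against 9.40 and 10.4, or -0.73 (SE 0.27, adjusted p 0.157). At an unadjusted p under 0.05 there were 11 members (32.4%), against 22.5% of all genes, 5 of them higher in AMPK KO (14.7%, background 11.1%: SCAP, NSDHL, HSD17B7, SC5D and STARD4) and 6 lower (17.6%, background 11.4%: SREBF1, INSIG1, CYP51A1, TM7SF2, FADS2 and CPT1A).

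With cordycepin+EGF most genes of sterol synthesis had lower values in AMPK KO than in WT. No member was called by limma (background 0.118%) or by limma-voom on the recovered reads (background 1.69%), and at an unadjusted p under 0.05 there were 9 members (26.5%), against 13.7% of all genes. The 7 lower in AMPK KO (20.6%, background 6.64%) were SREBF1, IDI1, FDPS, FDFT1, LSS, MSMO1 and EBP, and the 2 higher (5.88%, background 7.1%) were ACSS2 and FADS1. All 11 members of the sterol steps had values below 0, with a median of -0.28, and 5 of the 6 mevalonate members were below 0, with a median of -0.33. Over all genes 48.4% were below 0 and the median was 0.0145. The fatty acid group had 6 of 9 members above 0 and a median of 0.09. The 11 of 11 became 9 of 11 without WT cordycepin+EGF replicate 2 or without AMPK KO cordycepin+EGF replicate 2, and stayed at 11 in the other 22 alternatives. The mevalonate median depended on the WT cordycepin+EGF libraries, at -0.14 with 4 of 6 below 0 without replicate 3 and -0.48 with 6 of 6 without replicate 2.

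IDI1, the isomerase that supplies both isoprene units, had the largest difference under cordycepin+EGF, at 24.9 and 33.99 scaled RPKM in WT cells and 19.1 and 19.9 in AMPK KO, or -0.57 on the log2 scale (SE 0.2, adjusted p 0.292). FADS1, which desaturates polyunsaturated fatty acids beside FADS2, was at 8.13 and 5.81 against 9.30 and 9.60, or 0.43 (SE 0.19, adjusted p 0.361). ACSS2, which makes acetyl-CoA from acetate, was at 2.13 and 2.18 against 3.18 and 2.96, or 0.43 (SE 0.175, adjusted p 0.34). Of the 34 members, 20 (58.8%) did not overlap between the lines, against 45.8% of all genes. The 3 genes, chosen by fold change, were among them. None of these 3 differences was called in any of the 24 alternatives. Without WT cordycepin+EGF replicate 3, IDI1 stood at -0.35 and FADS1 at 0.21, and without replicate 2 at -0.79 and 0.66.

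**Figure D3:**
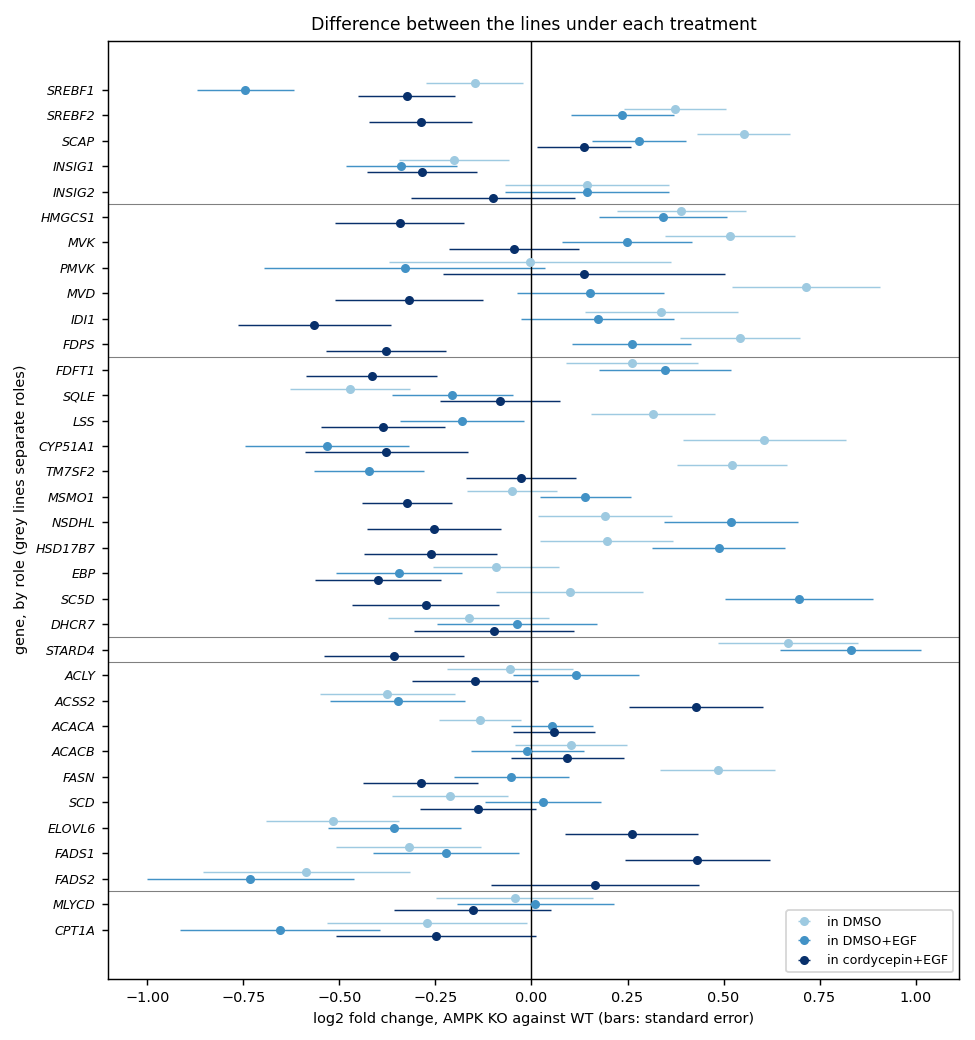
Log2 fold change between AMPK KO and WT (x axis) for each member (y axis, by role) in DMSO (light), DMSO+EGF (middle) and cordycepin+EGF (dark), with bars of 1 standard error. All 11 members of the squalene and sterol steps lie left of 0 in cordycepin+EGF, and MVD lies at 0.71 in DMSO.

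EGF for 30 min gave no call among the members in either line, with limma or with limma-voom, whose background was 0.0505% of all genes in WT and 0.0183% in AMPK KO. In WT cells 4 members (11.8%) had an unadjusted p under 0.05, against 9.72% of all genes, of which 0.0227% were called. CYP51A1 was at 0.623 and 0.713 scaled RPKM in DMSO and 1.37 and 1.56 in DMSO+EGF, or 0.75 on the log2 scale (SE 0.213, adjusted p 0.438). TM7SF2, a sterol reductase, was at 3.97 and 3.42 against 6.44 and 6.20, or 0.71 (SE 0.143, adjusted p 0.417), and was called only without WT DMSO replicate 2 (adjusted p 0.0433). SC5D, the sterol desaturase near the end of the route, was at 13.7 and 14.7 against 10.0 and 10.1, or -0.47 (SE 0.192, adjusted p 0.505). SREBF1 was the fourth, at 0.46 (SE 0.126, adjusted p 0.438). These 4 genes were picked by the p-value of this comparison, and their DMSO and DMSO+EGF libraries of WT did not overlap. Over the whole list that held for 11 of 34 members (32.4%), against 36.7% of all genes. All 6 mevalonate members had values above 0 in WT, with a median of 0.17, against 0.0162 over all genes.

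In AMPK KO cells no member had an unadjusted p under 0.05 for EGF, against 2.42% of all genes, of which 0.0136% were called. The largest values were -0.39 (SE 0.213) for CYP51A1, -0.24 (SE 0.143) for TM7SF2 and -0.21 (SE 0.149) for FASN. CYP51A1 was at 0.978 and 1.63 scaled RPKM in DMSO and 0.928 and 0.794 in DMSO+EGF. The TM7SF2 libraries held 4.98 and 6.08 against 4.25 and 4.95, and those of FASN 179 and 203 against 165 and 164. The test of the difference between the EGF effects of the 2 lines called no gene of the 22067 (0%), and limma-voom called no member. It gave -1.14 (SE 0.301, unadjusted p 0.00435, adjusted p 0.569) for CYP51A1, -0.95 (SE 0.203, unadjusted p 0.00119, adjusted p 0.569) for TM7SF2 and -0.60 (SE 0.179, unadjusted p 0.0087, adjusted p 0.569) for SREBF1, with negative values where the EGF effect was the lower one in AMPK KO. With FASN, these were the 4 members (11.8%) at an unadjusted p under 0.05, against 8.69% of all genes. The line comparison in DMSO, the EGF comparison in WT and this test share the WT DMSO libraries. Their values are therefore not independent.

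Cordycepin was compared with its solvent in EGF-stimulated cells. No member was called in WT cells with limma, where 0.00453% of all genes were, or with limma-voom, where 4.74% were, and 5 members (14.7%) had an unadjusted p under 0.05, against 16% of all genes. All 5 were above 0 (background 8.86%): SREBF2, MVK, NSDHL, HSD17B7 and SC5D. SC5D was at 10.0 and 10.1 scaled RPKM in DMSO+EGF and at 19.0 and 12.98 in cordycepin+EGF, or 0.62 on the log2 scale (SE 0.192, adjusted p 0.267), which was 0.35 without cordycepin+EGF replicate 2 and 0.88 without replicate 3. NSDHL, a sterol dehydrogenase, was at 18.3 and 14.9 against 25.0 and 20.9, or 0.46 (SE 0.175, adjusted p 0.283). HSD17B7, which acts beside NSDHL in removing methyl groups from sterols, was at 3.41 and 3.22 against 4.67 and 4.67, or 0.44 (SE 0.173, adjusted p 0.288). The sterol steps had 10 of 11 members above 0, with a median of 0.13, against 0.033 over all genes. In the same comparison all 6 tested HEK293 marker genes were below 0, with a median of -0.33 and none called (in AMPK KO also all 6, with a median of -0.21 and none called), and their part in these values was not tested. The EGF and cordycepin comparisons of a line share its DMSO+EGF libraries, so that the values of SC5D against DMSO and against cordycepin+EGF are not independent.

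In AMPK KO cells cordycepin gave no call among the members, against 0.471% of all genes, while 8 members (23.5%) had an unadjusted p under 0.05, against 21.8% of all genes. HMGCS1, IDI1, FDFT1 and STARD4 were at values below 0 (11.8%, background 10.1%), and SREBF1, TM7SF2, ACSS2 and FADS1 above 0 (11.8%, background 11.7%). Genes of sterol synthesis were on both sides, since TM7SF2 acts in the sterol steps. The sterol steps had 7 of 11 members below 0, with a median of -0.13. The mevalonate steps had 4 of 6 below 0, with a median of -0.18. Over all genes 44.9% were below 0 and the median was 0.0556. STARD4 (chromosome 5, 111496033 to 111512590, minus strand) held 23.8 and 23.2 scaled RPKM in DMSO+EGF and 12.8 and 12.6 in cordycepin+EGF, or -0.86 on the log2 scale (SE 0.183, adjusted p 0.0644). HMGCS1 (chromosome 5, 43287470 to 43313512, minus strand), which makes HMG-CoA at the head of the mevalonate route, held 37.4 and 35.5 against 19.1 and 23.9, or -0.76 (SE 0.167, adjusted p 0.069). Of the exon bases of HMGCS1, 37.7% lie opposite another gene, and whether strand was used in counting is not given. FDFT1 (chromosome 8, 11795573 to 11839395, plus strand), which commits farnesyl diphosphate to sterols, held 69.3 and 64.1 against 38.7 and 44.5, or -0.68 (SE 0.172, adjusted p 0.0855). IDI1 held 30.8 and 31.6 against 19.1 and 19.9, or -0.66 (SE 0.2, adjusted p 0.117). These 4 genes were picked by the p-value and direction of this comparison. Their cordycepin+EGF libraries lay below both other groups of AMPK KO, which was not counted over all genes. Against DMSO+EGF alone, 17 members (50%) were lower without overlap, against 27% of all genes. In either direction 26 members (76.5%) did not overlap, against 59.2% of all genes.

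The 4 genes lay near the threshold. STARD4 and HMGCS1 were called in 4 of the 24 alternatives each, namely with array weights, with limma-voom on the recovered reads and without either WT DMSO library, with adjusted p ranges of 0.0158 to 0.297 and 0.022 to 0.324. With limma-voom, HMGCS1, IDI1, FDFT1 and STARD4 were called and lower, 4 members (11.8%) against 5.93% of all genes. Of those above 0, ACSS2 held 2.06 and 1.83 scaled RPKM in DMSO+EGF and 3.18 and 2.96 in cordycepin+EGF, or 0.55 on the log2 scale (SE 0.175, adjusted p 0.131). FADS1 held 6.69 and 6.82 against 9.30 and 9.60, or 0.46 (SE 0.19, adjusted p 0.208). TM7SF2 held 4.25 and 4.95 against 6.49 and 7.15, or 0.52 (SE 0.143, adjusted p 0.0985). The promoter windows of STARD4, HMGCS1 and IDI1 held CCAAT boxes, and no window was matched to FDFT1. Of the genes above 0, SREBF1 and FADS1 had none in their windows, while ACSS2 and TM7SF2 had 1 each. Whether the motif goes with direction was not tested.

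**Figure D4:**
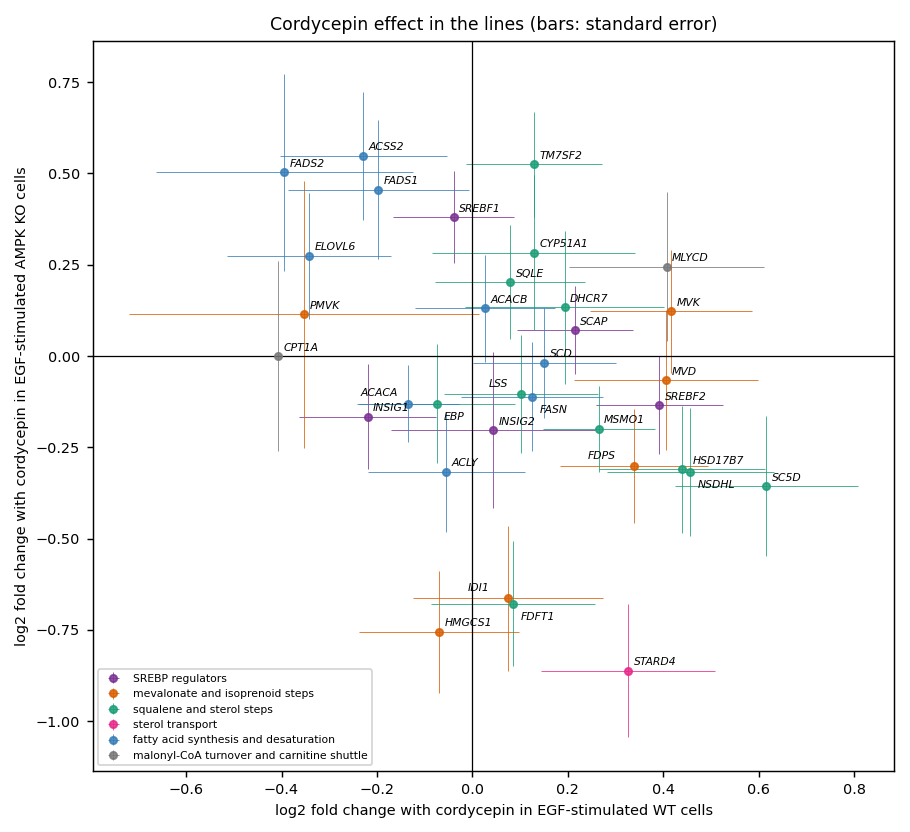
Log2 fold change of cordycepin+EGF against DMSO+EGF in WT (x axis) and in AMPK KO (y axis) for the 34 members, coloured by role, with bars of 1 standard error. STARD4, at 0.33 in WT and -0.86 in AMPK KO, is the lowest point, right of 0, and ACSS2, FADS1, FADS2 and ELOVL6 lie left of 0 and above 0.

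Whether the effect of cordycepin differed between the lines was tested directly. No gene of the 22067 was called (0%), and 15 members (44.1%) had an unadjusted p under 0.05, against 21.4% of all genes. The effect was lower in AMPK KO for 10 of them (29.4%, background 10.5%), namely SREBF2, HMGCS1, IDI1, FDPS, FDFT1, MSMO1, NSDHL, HSD17B7, SC5D and STARD4, and higher for 5 (14.7%, background 10.9%), namely SREBF1, ACSS2, ELOVL6, FADS1 and FADS2. The first 10 belong to the mevalonate and sterol steps, sterol transport or, in SREBF2, the sterol-directed SREBP, and the other 5 to fatty acid synthesis or, in SREBF1, its SREBP. The other 19 members, from all roles but sterol transport, were not under this p. STARD4 had the largest difference of effects, at -1.19 (SE 0.258, unadjusted p 0.00131, adjusted p 0.122), followed by SC5D at -0.97 (SE 0.271, unadjusted p 0.00597, adjusted p 0.127) and FADS2 at 0.90 (SE 0.382, unadjusted p 0.0434, adjusted p 0.22). FADS2 was at 19.5 and 14.3 scaled RPKM in DMSO+EGF and 16.2 and 9.75 in cordycepin+EGF in WT, and at 9.40 and 10.4 against 13.1 and 15.4 in AMPK KO. The median over the mevalonate steps was -0.56 and over the sterol steps -0.21, against 0.019 over all genes. The median of the fatty acid group was 0.10. In 9 members (26.5%, background 19.2%) the cordycepin+EGF libraries lay on one side of the DMSO+EGF libraries in WT and on the other side in AMPK KO, and for EGF against DMSO this held for 7 members (20.6%, background 10.5%). FADS2 ran from 0.54 to 1.25 over the 24 alternatives and was called in none. STARD4 was called in 5 of them, with an adjusted p of 0.012 to 0.349, and SC5D in 2, with 0.021 to 0.349. These differences of effects rest on the same DMSO+EGF and cordycepin+EGF libraries as the comparisons between the lines under those treatments, and the many unadjusted p-values are not independent of each other.

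The remaining members are given by their ranges over the 12 libraries, in scaled RPKM. Among the mevalonate genes, MVK, the mevalonate kinase, held 2.01 to 3.90, and FDPS, the farnesyl diphosphate synthase, 14.7 to 27.0. PMVK, the phosphomevalonate kinase, ranged from 2.91 to 5.92, with replicates of WT DMSO at 5.71 and 2.97, and had the largest standard error of the members (0.366 between 2 groups). Among the sterol genes, SQLE ran from 36.8 up to 60.03, LSS, which closes the sterol rings, 17.3 to 29.6, MSMO1 29.0 to 42.2 and EBP 15.8 to 26.3. DHCR7, which makes cholesterol from its last precursor, ranged from 23.1 to 38.2, and its WT cordycepin+EGF replicates differed most, at 38.2 and 24.5. In the fatty acid group, FASN held 123 to 203, SCD 177 to 248, ELOVL6 5.97 to 10.9, ACACA 19.8 to 26.3 and ACACB 2.07 to 2.53. ACLY ranged from 101 to 151, with its lowest value in AMPK KO cordycepin+EGF replicate 2 and 141 in replicate 3 of that group. MLYCD held 1.06 to 1.93.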

How the data were processed

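Total RNA of HEK293 cells was depleted of ribosomal RNA and sequenced as stranded paired reads. The authors aligned the reads to GRCh38.p13 with Rsubread and deposited RPKM (reads per gene length and library size) per Ensembl gene. The Rsubread version, annotation and gene filter are not given in the sources used here. The submitters discarded replicate 1. The table had 26060 rows. Left out were 2 that hold no gene name, and 26029 genes matched GENCODE 44, which supplied symbols.

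The following was computed here. RPKM was divided by each library's 75th percentile and brought back to a common size (scaled RPKM). The tests covered 22067 genes whose mean RPKM reached 0.5, and were made with limma 3.58.1 (R 4.3.3) on log2(scaled RPKM + 0.5), with 12 libraries and 6 group means in 1 fit (6 residual degrees of freedom), a mean-variance trend, 10 comparisons, two-sided tests and Benjamini-Hochberg adjustment over all genes in each comparison. The fit was tested on simulated data with the same spread in all libraries, and only for the line difference averaged over treatments. The other comparisons were not tested in this way. RPKM steps gave whole reads, within 0.05 read, for 25082 genes (96.25%) with annotated exon lengths and for 25671 (98.51%) after a search over lengths, and these reads were used for depth and for a limma-voom alternative. Full statistics were given to called members and, with fewer than 3 of them, to the 3 with the largest absolute log2 fold change in a comparison. Other members given statistics were chosen after their values were seen. Other lists were named at an adjusted p under 0.05. The members and lists were chosen with earlier results of these data known.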

Additional observations from a re-analysis of the deposited data

Results flagged for a closer look

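Some members were on opposite sides in the lines: both treated libraries lay above both reference libraries in 1 line and below them in the other. This pattern was seen for cordycepin in 9 members (26.5%) and in 19.2% of all genes tested, and for EGF in 7 members (20.6%) and in 10.5% of all genes. The difference of the effects itself was tested by the interaction term of limma, and no gene passed the adjusted threshold for either treatment. Values are log2 differences of the effect in AMPK KO minus that in WT. Their signs follow from how the genes were picked.

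Under cordycepin the effect was lower in AMPK KO for 7 of these genes. SC5D had a difference of -0.972, NSDHL one of -0.773 and HSD17B7 one of -0.75, and these 3 act late in the sterol route. FDPS stood at -0.639, MVD at -0.472, MSMO1 at -0.464 and SREBF2 at -0.525. Of these genes, MVD was not at an unadjusted p under 0.05 (limma). The effect was higher in AMPK KO for ACSS2, at 0.777, and for the elongase ELOVL6, at 0.618.

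Under EGF the effect was lower in AMPK KO for CYP51A1, at -1.14, TM7SF2, at -0.946, SREBF1, at -0.597, FASN, at -0.537, and LSS, at -0.496. It was higher for SC5D, at 0.597, and for SQLE, at 0.267. The differences of LSS, SC5D and SQLE were not at an unadjusted p under 0.05 (limma). CYP51A1 is the low gene that shares most of its exon bases with other genes, and the WT part of each EGF value rests in part on the shallow library WT DMSO replicate 3.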

How the results depend on the processing

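The 12 libraries were each left out and 12 other settings were tried. Of 69 values of single genes followed through these 24 alternatives, 67 kept their direction. Without 1 library, the averaged difference of ACACA between the lines ran from -0.0423 to 0.0276 on the log2 scale and that of PRKAA2 under cordycepin+EGF from -0.331 to 0.0853. SREBF1 was called on average over the treatments in 19 and SCAP in 12. Counts of called members that changed were as follows. Averaged over treatments, the 2 called members became 1 without the variance trend (background 4.28%) and 6 with limma-voom (background 11%). The count also changed on leaving out 1 library. In DMSO, 0 became 6 with limma-voom (background 8.35%) and 0 to 9 without 1 library (9 without WT DMSO replicate 3, background 13.9%). In DMSO+EGF, 1 became 3 with only the groups compared in the fit (background 10%), 11 with array weights (background 22.8%), 4 with limma-voom (background 11.4%) and 0 to 2 without 1 library (2 without WT DMSO replicate 2 or 3, background 10.7%). For EGF in WT the count changed only on leaving out 1 library, through TM7SF2. That gene ran from 0.61 to 0.80 on the log2 scale over the 24 alternatives. For cordycepin in AMPK KO, 0 became 3 with array weights (background 5.41%), 4 with limma-voom (background 5.93%) and 0 to 3 without 1 library (3 without WT DMSO replicate 2 or 3, backgrounds 6.16% and 6.12%). For the difference of the cordycepin effects, 0 became 1 with only the groups compared (background 5.11%), 2 with array weights (background 6.6%), 5 with limma-voom (background 9.54%) and 0 to 2 without 1 library (2 without WT DMSO replicate 2 or 3, backgrounds 9.06% and 9.09%). WT DMSO takes no part in the cordycepin comparisons. Leaving out 1 of its libraries kept their fold changes and altered only the shared estimate of the spread. The causes of the other changes were not tested. No member was called in any alternative for cordycepin+EGF between the lines, EGF in AMPK KO, cordycepin in WT or the difference of the EGF effects. Where a group was left with 1 library, that library was assumed to vary like the other groups. With the replicate number as a replicate block, over all libraries or within each line, the count in DMSO+EGF became 2 (SREBF1 and STARD4), and within each line SCAP lost its averaged call (adjusted p 0.053); same-numbered libraries correlated at -0.122 to 0.322 over the 15 pairs of groups, so that the numbers were not taken to pair them. Depth limits CYP51A1 and PMVK, each down to 12 reads in a library, and CPT1A, down to 35.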

Other observations

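Genes that work beside the members were also compared between the lines, averaged over the treatments, where 4.34% of all genes were called (limma, Benjamini-Hochberg). ACAT2, which makes acetoacetyl-CoA for HMG-CoA, was higher in AMPK KO, the only called gene of 5 in other sterol synthesis steps. It held 17.6 to 27.4 scaled RPKM in the 6 WT libraries and 24.6 to 40.7 in the 6 AMPK KO libraries, or 0.59 on the log2 scale (adjusted p 0.0282). NPC1, which exports cholesterol from lysosomes, was higher too, at 10.8 to 14.1 against 13.8 to 15.5, or 0.33 (adjusted p 0.0482), the only one of 8 tested in sterol trafficking. ERLIN1, which takes part in the degradation of INSIG-bound proteins, was lower, at 15.4 to 17.7 against 12.7 to 14.4, or -0.27 (adjusted p 0.0332), the only one of 10 in SREBP processing. None of the 9 genes of the isoprenoid and dolichol branches was called.

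Among genes of fatty acid handling, the long-chain acyl-CoA synthetases ACSL1 and ACSL4 were lower in AMPK KO, 2 of 14 tested in elongation, activation and esterification. ACSL1 held 4.28 to 5.54 scaled RPKM in WT and 2.37 to 3.41 in AMPK KO without overlap, or -0.66 (adjusted p 0.0114). ACSL4 held 7.40 to 15.8 against 5.12 to 8.96, or -0.67 (adjusted p 0.0253). SLC25A20, the mitochondrial carnitine and acylcarnitine carrier, was higher without overlap, at 3.13 to 4.08 against 4.29 to 6.51, or 0.52 (adjusted p 0.00932), the only one of 11 in mitochondrial fatty acid oxidation. IDH1, a cytosolic source of NADPH, was higher, at 9.62 to 12.1 against 11.4 to 17.8, or 0.46 (adjusted p 0.017), the only one of 6 in NADPH and citrate supply. No gene of these lists was called for cordycepin in either line.

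Leaving out 1 library ended every one of these calls but that of SLC25A20. ACSL1 lost its call without AMPK KO DMSO+EGF replicate 3 (adjusted p 0.052). IDH1 lost it without WT DMSO+EGF replicate 2, WT cordycepin+EGF replicate 2, AMPK KO DMSO replicate 2 or either AMPK KO DMSO+EGF library (0.0526 to 0.0691). ACAT2 was still called only without either WT DMSO or either WT cordycepin+EGF library, ACSL4 only without either WT DMSO library or AMPK KO cordycepin+EGF replicate 3, ERLIN1 only without either WT DMSO library, and NPC1 only without WT DMSO replicate 3 or WT cordycepin+EGF replicate 2.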
